A study of Mus musculus with 10 samples.

Results

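The genes described here encode chemokines and secreted cytokines of mouse fibroblasts. The list of 43 genes was drawn up by name and holds chemokines of the Ccl, Cxcl, Cx3cl and Xcl families together with interleukins, Lif, colony-stimulating factors, Hgf and Tslp. A gene was read from its brightest probe set, by mean signal, among those annotated with that symbol alone. In this way 42 of the 43 were measured, out of 22180 genes in the table. Ccl19 is not analysed here, because each of its 13 probe sets carries the symbols of several gene copies. The cells were mouse embryonic fibroblasts (MEFs), the matrix-producing cells of connective tissue, from dorsal skin at E13.5. One group carried a Zbtb4 knock-out (5 arrays) and the other was wild type for Zbtb4 (5 arrays), and no treatment or further allele is given for either. Total RNA was labelled with biotin and read on one-colour Affymetrix arrays. The deposited values are log2 signals, so that a difference of 1 is a factor of 2. The labels do not say that the 5 arrays of a genotype came from separate embryos or cultures, so each p-value rests on the spread of these samples alone, part of which may be technical.

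Chemokines are small secreted proteins that bind to matrix and to G protein-coupled receptors and draw leukocytes along their gradients. Their families are named after the spacing of conserved cysteines near the start of the protein. CC chemokines attract mainly monocytes, eosinophils and lymphocytes, CXC chemokines of one branch attract neutrophils, and those of another are induced by interferon. Cultured fibroblasts are a known source of several of them and of Il6, Lif, Csf1 and Hgf, and many are switched on through NF-kappaB, the transcription factor that answers to interleukin 1 and tumour necrosis factor. Zbtb4 is a transcriptional repressor with zinc fingers that recognise methylated DNA, and the study compared transcripts with and without it.

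Promoters were searched for an NF-kappaB motif, which was not a rule for the list, although many such genes are known to be switched on through NF-kappaB. RefSeq promoter windows (build GRCm38.p6) were found for 31 of the 42 measured genes. In the 250 bases before the start site, a match to the NF-kappaB consensus, a motif of 10 letters, was present on either strand for 8 of these 31 genes (25.8%), against 4.46% of 27025 genes of the same table. The 8 genes were Ccl9, Ccl20, Cxcl1, Cxcl2, Cxcl3, Cxcl10, Il6 and Csf1. Cxcl1, Cxcl2 and Cxcl3 share the same matching letters, so the 8 are not 8 separate finds. The sequence CNGCCATC, which takes in a site described for Zbtb4, was found on either strand in 0 of the 31 and in 4.01% of all genes. The median number of CpG dinucleotides in these 250 bases was 4 for the chemokine and cytokine windows and 6 for all windows. Both counts are descriptions of letters and do not show binding.

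The last 160 bases before the start site are given 5′ to 3′ along the coding strand for 6 of the 8 genes, to show where the matches lie, with the letters that match the NF-kappaB consensus in capitals.
Cxcl1 (chr5:90891085-90891244, plus strand): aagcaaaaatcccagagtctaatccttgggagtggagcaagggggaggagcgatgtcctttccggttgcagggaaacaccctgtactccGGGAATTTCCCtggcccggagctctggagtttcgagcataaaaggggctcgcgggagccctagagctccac
Cxcl2 (chr5:90903739-90903898, plus strand): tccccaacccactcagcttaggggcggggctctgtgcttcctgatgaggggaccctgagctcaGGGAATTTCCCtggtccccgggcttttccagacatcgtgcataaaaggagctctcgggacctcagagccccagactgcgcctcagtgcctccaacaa
Cxcl3 (chr5:90785941-90786100, plus strand): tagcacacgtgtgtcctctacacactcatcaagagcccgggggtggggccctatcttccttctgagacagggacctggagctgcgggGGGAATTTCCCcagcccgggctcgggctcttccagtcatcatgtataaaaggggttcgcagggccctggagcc
Cxcl10 (chr5:92348890-92349049, minus strand): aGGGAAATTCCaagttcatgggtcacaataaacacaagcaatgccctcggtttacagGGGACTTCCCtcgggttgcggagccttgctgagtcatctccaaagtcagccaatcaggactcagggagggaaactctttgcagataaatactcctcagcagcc
Il6 (chr5:30012954-30013113, plus strand): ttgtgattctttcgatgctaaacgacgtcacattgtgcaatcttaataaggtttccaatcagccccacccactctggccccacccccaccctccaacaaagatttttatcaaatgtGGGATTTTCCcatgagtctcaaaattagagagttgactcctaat
Csf1 (chr3:107760470-107760629, minus strand): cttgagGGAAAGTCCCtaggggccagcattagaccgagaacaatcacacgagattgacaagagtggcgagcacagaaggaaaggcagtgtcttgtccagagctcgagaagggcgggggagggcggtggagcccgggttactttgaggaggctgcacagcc

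In Cxcl1, Cxcl2 and Cxcl3, which lie on chromosome 5, the capitals are the same 11 letters, GGGAATTTCCC, in which 2 matches on opposite strands overlap. They begin 71, 97 and 73 bases before the start. Il6 has its match 44 to 35 bases before the start, Cxcl10 has 2 separate matches, and that of Csf1 begins 154 bases before the start. The 8 genes with a match are described in their groups below, and no difference between genotypes passed the threshold for any of them.

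No chemokine or cytokine gene passed the test for a difference between Zbtb4 knock-out and wild-type cells. With an adjusted p under 0.05 as the threshold (limma, Benjamini-Hochberg over all genes), 0 of the 42 genes and 0 of all 22180 genes (0%) were called. The smallest adjusted p among the 42 was 0.821. Before adjustment 1 gene, Il1a, was higher with p under 0.05, against 3.25% of all genes, and 2 genes, Ccl11 and Il6, were lower, against 2.73%. For none of the 42 did the arrays of the genotypes fail to overlap, while 0.541% of all genes were higher and 0.446% lower without overlap. None of the 42 means differed by 1.5-fold or more, and only 23 of all 22180 genes did. Differences ran from -0.47 for Ccl11 to 0.40 for Ccl12, with 22 means higher and 20 lower and a median of 0.0070 (mean -0.014, of the opposite sign), beside a median of 0.0020 over all genes. Under quantile normalization and under centring of the arrays on their medians the split was 20 higher and 22 lower, and the median turned to -0.0034 and -0.011. The intervals are wide: the median standard error was 0.13 for these genes and 0.10 for all genes.

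**Figure D1:**
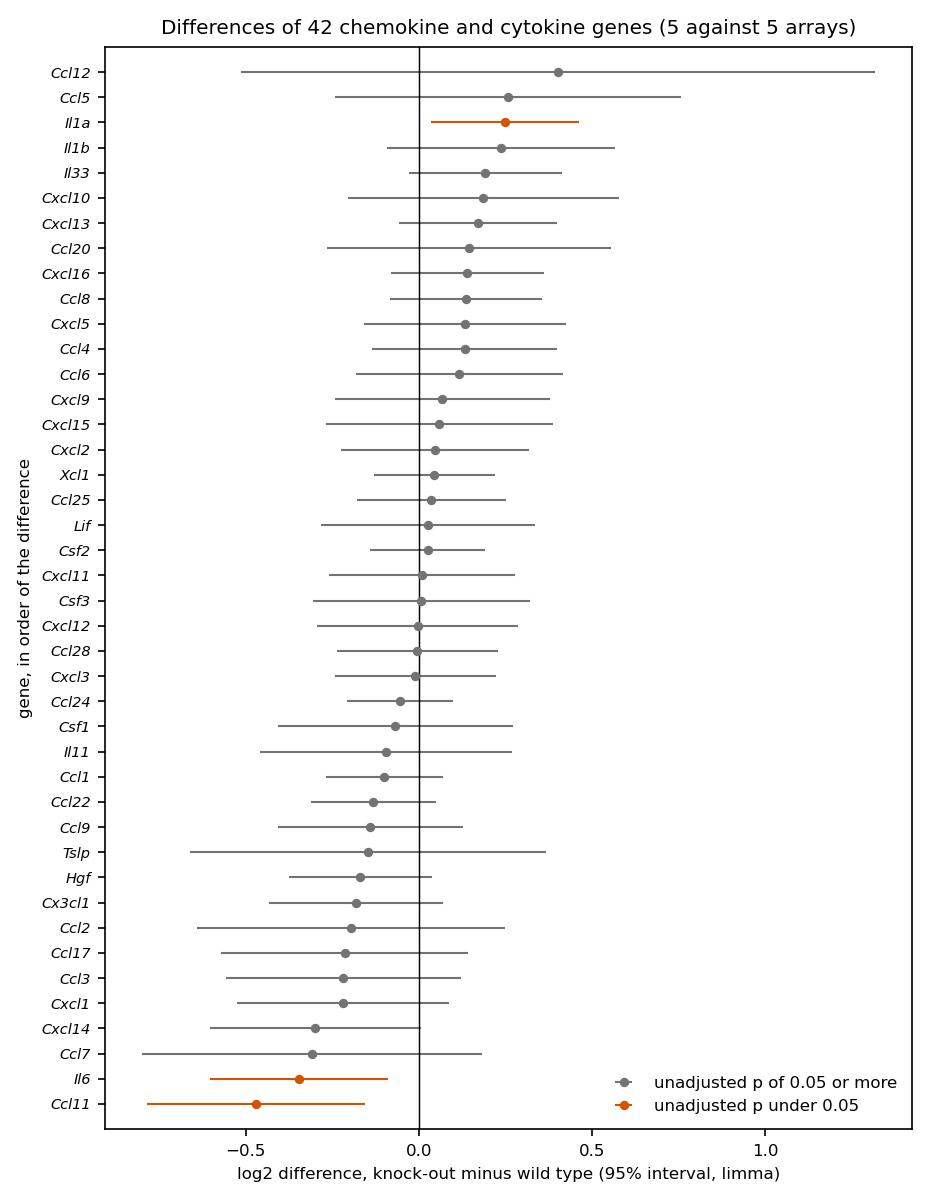
Log2 difference (knock-out minus wild type) of each of the 42 genes, with the 95% interval from limma on 5 against 5 arrays. The intervals of Ccl11, Il6 and Il1a, in orange, do not include 0 before adjustment for the number of genes, and the interval of Ccl12 is the widest, from -0.52 to 1.32.

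Zbtb4 itself, read first as a check of the labels, was lower on all knock-out arrays. The log2 signal of Zbtb4 on knock-out arrays 1 to 5 was 5.44, 5.76, 5.04, 5.62 and 5.39, and on wild-type arrays 1 to 5 it was 6.06, 6.03, 5.94, 6.23 and 6.11. The groups did not overlap, and the log2 difference was -0.62 (standard error 0.12, limma adjusted p = 0.628). The exact two-sided permutation test over all splits into 5 and 5 arrays gave p = 0.00794, the smallest value it can give. The extent of the deletion is not stated in the labels. Fibroblast identity was checked on 14 markers, among them Col1a1, Vim and Pdgfra, and all 14 lay above the median of named genes on every array. So did 10085 of all 22180 genes, among them 8 of 18 macrophage, 2 of 10 endothelial and 3 of 8 keratinocyte markers. A place above the median therefore does not mark fibroblasts alone. Array medians over named genes ran from 4.29 to 4.34, and pairs of arrays correlated across genes with r from 0.989 to 0.994. Y-linked genes were bright on arrays 1 and 3 of each genotype (means of 5.89 to 6.42) and dim on arrays 2, 4 and 5 (2.49 to 2.78). The 5 arrays of a genotype were therefore not all repeats of 1 source, and arrays of the same number matched in Y-linked signal. Of 16 markers of T, B, NK and mast cells and neutrophils, 15 lay below the median on every array. Macrophage markers stood apart on knock-out arrays 3 and 5: 16 of 18 were highest on array 3 and 9 of 18 lowest on array 5. Their mean log2 signal was 5.52 and 4.21 on these arrays, 4.49 to 4.84 on the other knock-out arrays and 4.42 to 4.86 on wild-type arrays. Of 10 endothelial markers 7 means were higher with a median difference of 0.12, among them Cdh5 at 0.61 (limma adjusted p = 0.628), and 8 keratinocyte markers split 4 to 4. No background level came with the values, so no marker can be called absent.

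The genes ranged from bright to dim. On every array 16 of them lay above the median of named genes and 19 below it, and the other 7 crossed it. Brightness also depends on the probes, so levels are not set against each other between genes. Among the 16 were Ccl2, Ccl7, Cxcl12, Cxcl14, Csf1 and Lif, while Il1a, Il1b, Il6, Csf2 and Csf3 were among the 19. The within-genotype SD had a median of 0.26 over the 16 bright genes and of 0.14 over the 10085 genes that lay above the median on every array. That contrast is a description of these libraries and was not tested.

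**Figure D2:**
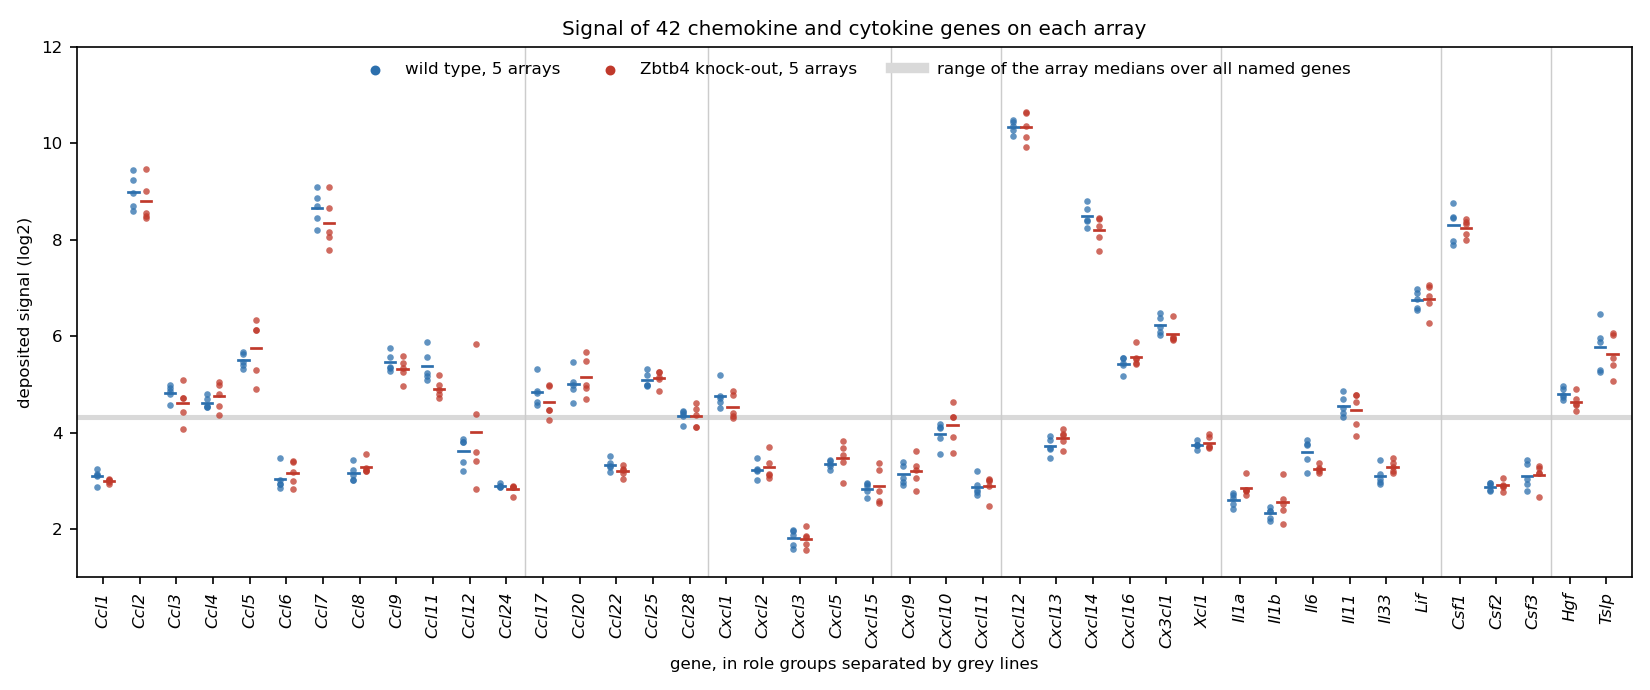
Deposited log2 signal of each of the 42 genes on the 5 wild-type (blue) and 5 knock-out arrays (red), points for arrays and short lines for group means, in role groups. The grey band marks the array medians over named genes, from 4.29 to 4.34, and for every gene the red and blue points overlap.

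Among the inflammatory CC chemokines, the monocyte attractants Ccl2 and Ccl7 had clear signal in both genotypes. On knock-out arrays 1 to 5 Ccl2 read 8.55, 8.46, 9.46, 9.02 and 8.49, against 8.60, 8.71, 8.97, 9.44 and 9.25 on wild-type arrays 1 to 5 (log2 signal). Ccl7 gave log2 signals of 8.07, 8.16, 9.10, 8.67 and 7.79 on the knock-out arrays, in the order 1 to 5, and of 8.21, 8.46, 8.69, 9.10 and 8.88 on the wild-type arrays. For both genes knock-out array 3 and wild-type array 4 were the highest, and knock-out arrays 1, 2 and 5 were among the lowest. Knock-out cells averaged 8.80 ± 0.44 and wild-type cells 8.99 ± 0.35 (SD, n = 5 arrays each), and the log2 difference came to -0.20 (standard error 0.21, 95% interval -0.64 to 0.25, limma adjusted p = 0.897). Averages of 8.36 ± 0.52 in the knock-out and 8.67 ± 0.35 in the wild type (SD, n = 5 arrays each) put Ccl7 at a log2 difference of -0.31 (standard error 0.23, 95% interval -0.80 to 0.18, limma adjusted p = 0.857). Both values moved with single arrays: Ccl2 ran from -0.36 without knock-out array 3 to -0.085 without wild-type array 4, and Ccl7 from -0.49 without knock-out array 3 to -0.17 without knock-out array 5.

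Ccl11, the eosinophil attractant eotaxin, had the largest negative difference and the smallest p-value of the 42. The log2 signal of Ccl11 on knock-out arrays 1 to 5 was 4.89, 4.72, 5.20, 4.79 and 4.98, and on wild-type arrays 1 to 5 it was 5.23, 5.17, 5.09, 5.57 and 5.88. The lowest arrays were all knock-out and wild-type array 5 was the highest, but knock-out array 3 reached into the range of the wild type. The mean of the 5 knock-out arrays was 4.92 ± 0.19 (SD) and that of the 5 wild-type arrays 5.39 ± 0.33, which is a log2 difference of -0.47 (standard error 0.15, 95% interval -0.79 to -0.16, limma adjusted p = 0.821). The exact two-sided permutation test of this gene alone gave p = 0.0238, unadjusted. With single arrays left out, Ccl11 ran from -0.54 without wild-type array 3 to -0.35 without wild-type array 5 (limma adjusted p = 0.951 and 0.640).

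Ccl12, another monocyte attractant, had the largest spread between arrays of the 42 genes. Ccl12 gave log2 signals of 4.38, 3.42, 5.84, 3.59 and 2.83 on the knock-out arrays, in the order 1 to 5, and of 3.80, 3.86, 3.21, 3.80 and 3.39 on the wild-type arrays. Knock-out arrays held both the highest value, on array 3, and the lowest, on array 5, and the wild-type arrays lay between them. Averages of 4.01 ± 1.16 in the knock-out and 3.61 ± 0.29 in the wild type (SD, n = 5 arrays each) put Ccl12 at a log2 difference of 0.40 (standard error 0.42, 95% interval -0.52 to 1.32, limma adjusted p = 0.898). Without knock-out array 3 the difference was -0.056 (adjusted p = 0.982).

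Ccl5, the T cell and monocyte attractant also called RANTES, followed the same arrays. On knock-out arrays 1 to 5 Ccl5 read 6.12, 5.31, 6.33, 6.12 and 4.90, against 5.31, 5.68, 5.48, 5.63 and 5.40 on wild-type arrays 1 to 5 (log2 signal). Knock-out arrays 1, 3 and 4 lay above all wild-type arrays and knock-out arrays 2 and 5 below them, array 2 only just. Knock-out cells averaged 5.76 ± 0.62 and wild-type cells 5.50 ± 0.15 (SD, n = 5 arrays each), and the log2 difference came to 0.26 (standard error 0.23, 95% interval -0.24 to 0.76, limma adjusted p = 0.881). It was 0.11 without knock-out array 3 and 0.47 without knock-out array 5 (adjusted p = 0.952 and 0.913). Ccl9, an attractant of myeloid cells whose promoter has an NF-kappaB match, differed by -0.14 (standard error 0.12, limma adjusted p = 0.879). The log2 signal of Ccl9 on knock-out arrays 1 to 5 was 5.59, 4.97, 5.44, 5.34 and 5.26, and on wild-type arrays 1 to 5 it was 5.36, 5.76, 5.27, 5.57 and 5.33. The groups overlapped through most of their range, and the difference was -0.053 without knock-out array 2 and -0.066 without wild-type array 2. The other 6 genes of the group, Ccl1, Ccl3, Ccl4, Ccl6, Ccl8 and Ccl24, had differences from -0.22 for Ccl3 to 0.14 for Ccl8 and adjusted p-values from 0.855 to 0.919. In all, 5 of the 12 means were higher and 7 lower, 0 passed in either direction, and the median difference was -0.078.

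The mean of this group, though not each of its genes, was highest and lowest on the same arrays as that of the macrophage markers. The mean log2 signal of the 12 inflammatory CC chemokines was highest on knock-out array 3, at 5.33, and lowest on knock-out array 5, at 4.58, and ran from 4.80 to 5.08 on wild-type arrays. The 18 macrophage markers had their highest and lowest means on the same arrays, 5.52 and 4.21. Gene by gene, 5 of the 12 chemokines were highest on knock-out array 3, against 16 of the 18 markers. On knock-out array 5, 5 of the 12 were lowest, against 9 of the 18 and 11.5% of all genes. Knock-out array 2 was lowest for another 4 of the 12 and for 3 of the 18, against 11.5% of all genes. On wild-type array 5 the markers averaged 4.53, while Ccl11 had its highest value there, 5.88. On knock-out array 3 the macrophage lysozyme gene Lyz2 read 8.41 and the adaptor gene Tyrobp 7.49, and on knock-out array 5 they read 5.62 and 4.83, against 6.34 to 7.44 and 5.49 to 6.31 on wild-type arrays. Of all 42 chemokine and cytokine genes, 12 (28.6%) were highest on knock-out array 3, where 11.4% of all genes were. The part of macrophages in these values was not tested, and in bulk RNA fewer cells of a type and less RNA per cell cannot be told apart. With all arrays 3 of the 42 genes had an unadjusted p under 0.05, and leaving out any single array but knock-out array 3 gave 2 to 5. Without knock-out array 3, which was picked here for its values, 7 of the 42 did. Cxcl5, Cxcl13 and Il1a were the 3 higher ones (3.33% of all genes), and Ccl3, Ccl7, Ccl11 and Il6 were the 4 lower ones (2.68% of all genes). None passed after adjustment, the smallest adjusted p being 0.815, and the macrophage markers then had 7 of 18 means higher in place of 16.

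**Figure D3:**
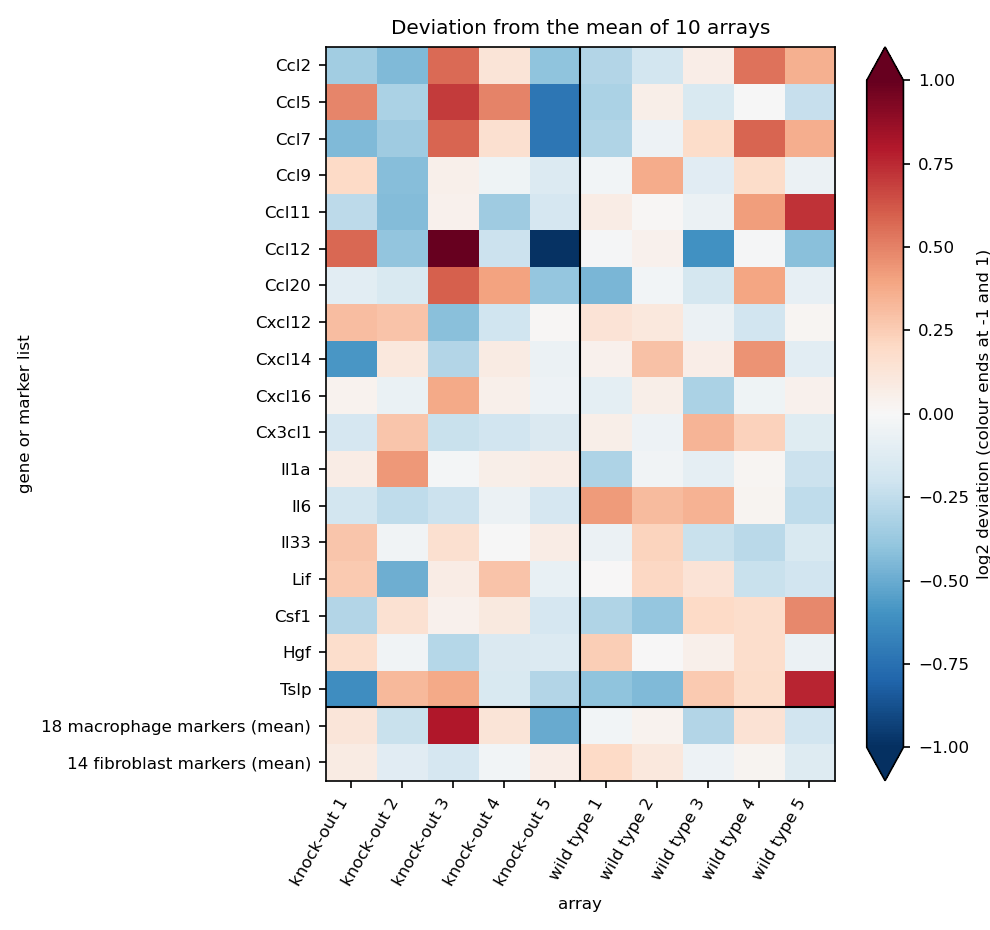
Deviation of the log2 signal on each array from the mean of 10 arrays, for the 18 chemokine and cytokine genes given array by array and, under the black line, for the mean of 18 macrophage and 14 fibroblast markers. Knock-out array 3 is high for Ccl2, Ccl5, Ccl7, Ccl12, Ccl20 and the macrophage markers, and no gene has one colour throughout a genotype and the opposite colour throughout the other.

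Ccl2, Ccl7, Ccl11, Ccl12, Ccl8 and Ccl1 are consecutive protein-coding genes on chromosome 11 in the RefSeq order, at 268 to 273 genes from Zbtb4, which lies on the same chromosome. Among their 15 pairs only the first 2 neighbours varied together across the 10 arrays after adjustment. Ccl2 and Ccl7 correlated with Pearson's r = 0.96 (permutation p = 2e-05, adjusted 0.0003) and Spearman's rho = 0.95 (permutation p = 0.00012, adjusted 0.0018). Leaving out knock-out array 3 and wild-type array 4, the farthest from the median of Ccl2, gave r = 0.93. Within the knock-out arrays r was 0.96 and within the wild-type arrays 0.98, each over 5 arrays. Ccl2 and Ccl11 gave r = 0.63 (permutation p = 0.0476, adjusted 0.357) and rho = 0.64 (permutation p = 0.0548, adjusted 0.335), with r = 0.63 after the same arrays were left out. Ccl2 and Ccl12 gave r = 0.45 (permutation p = 0.198, adjusted 0.513) and rho = 0.28 (permutation p = 0.431, adjusted 0.718). Without those 2 arrays r was -0.13. Of the 2, knock-out array 3 had Ccl12 at 5.84, far above its mean of 3.81 over 10 arrays. Wild-type array 4, at 3.80, lay next to that mean. The arrays share one table and normalization, and how far related sequences share probe signal is not known here.

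**Figure D4:**
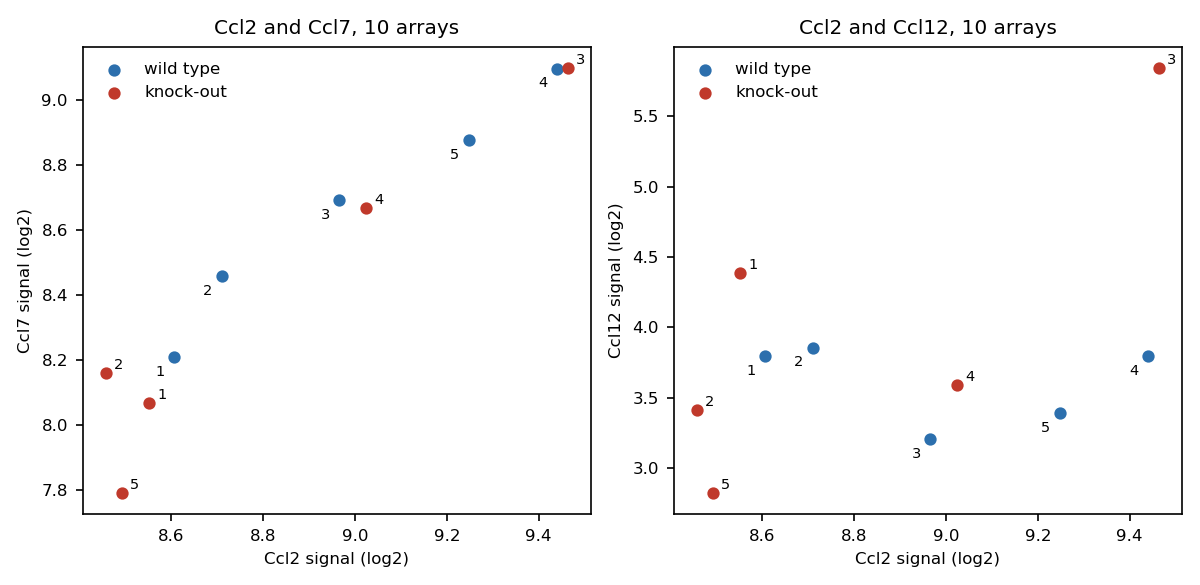
Log2 signal of Ccl7 (left) and Ccl12 (right) against that of Ccl2 on the 10 arrays, numbered by replicate and coloured by genotype. Ccl7 follows Ccl2 over both genotypes (r = 0.96), while Ccl12 at 5.84 on knock-out array 3 stands apart from the other 9 arrays.

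The homeostatic and other CC chemokines were represented by 5 genes, 2 with higher and 3 with lower means, a median difference of -0.0050 and 0 calls. Ccl20, which draws cells that carry Ccr6 and has an NF-kappaB match in its promoter, varied most of them. On knock-out arrays 1 to 5 Ccl20 read 4.98, 4.93, 5.68, 5.48 and 4.69, against 4.62, 5.05, 4.91, 5.47 and 4.99 on wild-type arrays 1 to 5 (log2 signal). The highest arrays were knock-out 3 and 4 and wild-type 4, and the lowest were wild-type 1 and knock-out 5. Averages of 5.15 ± 0.41 in the knock-out and 5.01 ± 0.31 in the wild type (SD, n = 5 arrays each) put Ccl20 at a log2 difference of 0.14 (standard error 0.19, 95% interval -0.27 to 0.55, limma adjusted p = 0.923). Leaving out knock-out array 3 gave 0.011, while leaving out either knock-out array 5 or wild-type array 4 gave 0.26. Ccl17 and Ccl22, the ligands of Ccr4, differed by -0.22 and -0.13 (adjusted p = 0.861 and 0.842). Ccl25, which attracts thymocytes and gut T cells, differed by 0.035 and the epithelial chemokine Ccl28 by -0.0050 (adjusted p = 0.969 and 0.997).

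The neutrophil-attracting CXC chemokines had dim or middling signal in both genotypes, and 4 of the 5 lay below the median of named genes on every array. Cxcl1, the exception, was lowest on knock-out array 4, at 4.31, and highest on wild-type array 3, at 5.19, and differed by -0.22 (limma adjusted p = 0.842). Cxcl2 and Cxcl3, with the same promoter motif as Cxcl1, differed by 0.046 and -0.011, and Cxcl5 and Cxcl15 by 0.13 and 0.058 (adjusted p = 0.894 to 0.991 over these 4). The median of the 5 was 0.046 and turned to -0.060 without knock-out array 3. The interferon-induced chemokines Cxcl9, Cxcl10 and Cxcl11, ligands of the chemokine receptor Cxcr3 on T cells, differed by 0.067, 0.19 and 0.0079 (adjusted p = 0.955, 0.891 and 0.995), and 1 of these 3 means turned negative under quantile normalization, under median centring and without knock-out array 3. Cxcl10, whose promoter holds 2 NF-kappaB matches, ran from 3.58 to 4.63 on knock-out and from 3.55 to 4.17 on wild-type arrays, with its highest value on knock-out array 3.

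Cxcl12, the stromal ligand of Cxcr4 that retains blood stem cells in their niche, had bright signal on every array. Cxcl12 gave log2 signals of 10.65, 10.62, 9.92, 10.14 and 10.35 on the knock-out arrays, in the order 1 to 5, and of 10.48, 10.44, 10.28, 10.15 and 10.36 on the wild-type arrays. Knock-out arrays held the highest values, on arrays 1 and 2, and the lowest, on array 3. The mean of the 5 knock-out arrays was 10.34 ± 0.31 (SD) and that of the 5 wild-type arrays 10.34 ± 0.13, which is a log2 difference of -0.0046 (standard error 0.13, 95% interval -0.29 to 0.28, limma adjusted p = 0.998). The sign turned with 4 of the 10 arrays left out singly, and the difference was 0.10 without knock-out array 3. That interval leaves out a change of 1.5-fold in either direction. Taken singly, so do the intervals of the other genes of the list except Ccl2, Ccl5, Ccl7, Ccl11, Ccl12, Cxcl14, Il6 and Tslp.

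Cxcl14, a chemokine of skin and stroma, had a lower mean in the knock-out. The log2 signal of Cxcl14 on knock-out arrays 1 to 5 was 7.76, 8.45, 8.05, 8.43 and 8.28, and on wild-type arrays 1 to 5 it was 8.39, 8.64, 8.41, 8.80 and 8.24. Knock-out arrays 1 and 3 were the lowest, and the other knock-out arrays overlapped with the wild type. Averages of 8.20 ± 0.29 in the knock-out and 8.49 ± 0.22 in the wild type (SD, n = 5 arrays each) put Cxcl14 at a log2 difference of -0.30 (standard error 0.14, 95% interval -0.60 to 0.0059, limma adjusted p = 0.83). The exact permutation test of this gene alone gave p = 0.135, and without knock-out array 1 the difference was -0.19.

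Cx3cl1 and Cxcl16 are made as membrane-bound proteins that can be shed. On knock-out arrays 1 to 5 Cx3cl1 read 5.97, 6.41, 5.91, 5.95 and 5.99, against 6.19, 6.09, 6.48, 6.37 and 6.02 on wild-type arrays 1 to 5 (log2 signal). Knock-out array 2 stood above the other knock-out arrays and among the wild-type ones. Knock-out cells averaged 6.05 ± 0.21 and wild-type cells 6.23 ± 0.19 (SD, n = 5 arrays each), and the log2 difference came to -0.18 (standard error 0.12, 95% interval -0.43 to 0.068, limma adjusted p = 0.842). It was -0.27 without knock-out array 2 and -0.12 without wild-type array 3 (adjusted p = 0.861 and 0.968). Cxcl16 gave log2 signals of 5.53, 5.43, 5.87, 5.55 and 5.44 on the knock-out arrays, in the order 1 to 5, and of 5.39, 5.55, 5.18, 5.45 and 5.54 on the wild-type arrays. Its highest value was again on knock-out array 3. Cxcl16, on chromosome 11 at 43 genes from Zbtb4, differed by 0.14 (standard error 0.10, limma adjusted p = 0.857), or by 0.062 without knock-out array 3 and 0.078 without wild-type array 3. Cxcl13, the B cell attractant, and Xcl1, the ligand of Xcr1 on dendritic cells, differed by 0.17 and 0.044 (adjusted p = 0.842 and 0.948).

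Il6, the inflammatory interleukin that signals through the shared receptor chain Il6st, had dim signal and a lower mean in the knock-out. The log2 signal of Il6 on knock-out arrays 1 to 5 was 3.24, 3.17, 3.21, 3.37 and 3.26, and on wild-type arrays 1 to 5 it was 3.85, 3.74, 3.77, 3.45 and 3.17. The 5 knock-out arrays lay close together, wild-type arrays 1 to 4 lay above them, and wild-type array 5 was level with the lowest knock-out array. The mean of the 5 knock-out arrays was 3.25 ± 0.074 (SD) and that of the 5 wild-type arrays 3.60 ± 0.28, which is a log2 difference of -0.35 (standard error 0.12, 95% interval -0.61 to -0.091, limma adjusted p = 0.821). The exact two-sided permutation test of this gene alone gave p = 0.0556, unadjusted. With single arrays left out, Il6 ran from -0.45 without wild-type array 5 to -0.28 without wild-type array 1 (limma adjusted p = 0.579 and 0.869).

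Il1a, an alarm cytokine that activates NF-kappaB in neighbouring cells, had dim signal and a higher mean in the knock-out. On knock-out arrays 1 to 5 Il1a read 2.80, 3.16, 2.71, 2.79 and 2.80, against 2.42, 2.70, 2.64, 2.75 and 2.51 on wild-type arrays 1 to 5 (log2 signal). Knock-out array 2 was far above the rest, and knock-out array 3, below wild-type array 4, was the one knock-out array inside the wild-type range. Knock-out cells averaged 2.85 ± 0.18 and wild-type cells 2.60 ± 0.13 (SD, n = 5 arrays each), and the log2 difference came to 0.25 (standard error 0.10, 95% interval 0.035 to 0.46, limma adjusted p = 0.821). The exact two-sided permutation test of this gene alone gave p = 0.0159, unadjusted. With single arrays left out, Il1a ran from 0.17 without knock-out array 2 to 0.28 without knock-out array 3 (limma adjusted p = 0.865 and 0.815). Il33, an alarm cytokine of the same family kept in the nucleus, had values on the arrays in order 1 to 5 of 3.48, 3.16, 3.36, 3.20 and 3.28 for the knock-out and 3.14, 3.43, 2.98, 2.93 and 3.05 for the wild type. Knock-out array 1 was its highest and wild-type array 4 its lowest array, and the difference was 0.19 (standard error 0.10, limma adjusted p = 0.840). Il1b differed by 0.24 (adjusted p = 0.842), with its highest value, 3.15, on knock-out array 3, without which it differed by 0.090.

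Lif and Il11, which share the receptor chain Il6st with Il6, differed by less than the spread between arrays. Lif gave log2 signals of 7.03, 6.28, 6.84, 7.06 and 6.70 on the knock-out arrays, in the order 1 to 5, and of 6.77, 6.98, 6.91, 6.54 and 6.58 on the wild-type arrays. Knock-out array 2 was the lowest and knock-out arrays 4 and 1 the highest. Averages of 6.78 ± 0.32 in the knock-out and 6.76 ± 0.19 in the wild type (SD, n = 5 arrays each) put Lif at a log2 difference of 0.025 (standard error 0.14, 95% interval -0.28 to 0.33, limma adjusted p = 0.988). The sign turned with 4 of the 10 arrays left out singly and with array weights. Il11 ran from 3.92 to 4.79 on knock-out and from 4.32 to 4.87 on wild-type arrays, a difference of -0.096 (adjusted p = 0.946) that turned to 0.040 without knock-out array 3. Over all 6 interleukin and Lif genes, 4 means were higher and 2 lower, the median was 0.11, and 0 passed.

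Csf1, the growth factor on which macrophages depend, had bright signal in both genotypes. The log2 signal of Csf1 on knock-out arrays 1 to 5 was 7.99, 8.43, 8.32, 8.38 and 8.11, and on wild-type arrays 1 to 5 it was 7.98, 7.89, 8.48, 8.46 and 8.76. Both the highest and the lowest array were wild type, arrays 5 and 2. Knock-out cells averaged 8.25 ± 0.19 and wild-type cells 8.32 ± 0.37 (SD, n = 5 arrays each), and the log2 difference came to -0.068 (standard error 0.16, 95% interval -0.41 to 0.27, limma adjusted p = 0.961). It ran from -0.17 without wild-type array 2 to 0.044 without wild-type array 5. Csf2 and Csf3, which drive the formation of granulocytes, lay below the median of named genes on every array and differed by 0.024 and 0.0061 (adjusted p = 0.974 and 0.997). With 2 of the 3 colony-stimulating factor means higher, the median was 0.0061, and it turned to -0.015 under quantile normalization and -0.012 under median centring.

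Hgf, the ligand of the receptor Met and a mesenchymal signal to epithelia, had a slightly lower mean in the knock-out. On knock-out arrays 1 to 5 Hgf read 4.90, 4.69, 4.44, 4.58 and 4.59, against 4.97, 4.73, 4.78, 4.90 and 4.67 on wild-type arrays 1 to 5 (log2 signal). Knock-out arrays 3, 4 and 5 were the lowest, while knock-out array 1 lay near the top of the wild-type range. The mean of the 5 knock-out arrays was 4.64 ± 0.17 (SD) and that of the 5 wild-type arrays 4.81 ± 0.12, which is a log2 difference of -0.17 (standard error 0.10, 95% interval -0.38 to 0.037, limma adjusted p = 0.841). Tslp gave log2 signals of 5.08, 6.02, 6.08, 5.55 and 5.41 on the knock-out arrays, in the order 1 to 5, and of 5.30, 5.26, 5.96, 5.88 and 6.46 on the wild-type arrays. Tslp, which activates dendritic cells at body surfaces, was highest on wild-type array 5 and lowest on knock-out array 1, and the groups overlapped. It differed by -0.15 (standard error 0.24, limma adjusted p = 0.940), and ran from -0.27 without wild-type array 2 to 0.026 without wild-type array 5.

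The receptors gave no calls either. Of 21 measured chemokine receptor genes 0 passed in either direction, with 16 means higher, 5 lower and a median difference of 0.056. Over all genes 50.7% of means were higher, and the split of the receptors was not tested. On every array 16 of the 21 lay below the median of named genes. Ccr1, a receptor of Ccl3 and Ccl5, differed by 0.23, Cxcr6, the receptor of Cxcl16, by 0.24, Ccr8 by -0.18 and Ccr9 by 0.19 (adjusted p = 0.821 to 0.842). Of 15 cytokine receptor and antagonist genes 0 passed, with 7 means higher, 8 lower and a median of -0.082, which was -0.025 with a split of 6 to 9 without knock-out array 3. Met, the receptor of Hgf, averaged 6.17 ± 0.074 (SD, n = 5) in the knock-out and 6.52 ± 0.31 in the wild type, which differ by -0.35 (limma adjusted p = 0.821). Csf2rb, the shared receptor chain of Csf2, averaged 4.30 ± 0.51 and 3.67 ± 0.22, which differ by 0.63 (limma adjusted p = 0.821). Osmr, a partner of Il6st, differed by -0.22 and Csf1r, the receptor of Csf1 and itself a macrophage marker, by 0.33 (adjusted p = 0.839 and 0.830).

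Genes of the NF-kappaB pathway and its feedback, 21 of them measured, had 5 higher and 16 lower means with a median of -0.060, and 0 passed. This split was not tested either, and 50.7% of all genes had a higher mean. Under quantile normalization the split was 8 to 13 and the median -0.030. Vcam1, an adhesion molecule for leukocytes, differed by -0.22, Traf1 by 0.21, the transcription factor gene Cebpd by -0.18 and Sod2 by 0.12 (adjusted p = 0.821 to 0.858). Of 14 interferon response genes 0 passed, with 8 higher, 6 lower and a median of 0.011 that turned to -0.0062 under centring of arrays. Ifit3 differed by 0.36, Bst2 by 0.30, Mx2 by -0.22 and Rsad2 by 0.18 (adjusted p = 0.821 to 0.852).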

How the data were processed

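The deposited table gives 1 log2 value per probe set and array, and the scale is judged from the values (0.92 to 13.42). The authors' steps from probes to values were not given in the sources used here. If arrays were scaled to each other, a shift of all transcripts could not be seen. The platform annotation names 23521 of 41345 probe sets with 1 symbol, 1814 with several and 16010 with none. Only the first were used, which left 22180 genes.

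Knock-out and wild type were compared with lmFit and eBayes in limma 3.58.1 (R 4.3.3) on all 10 arrays without covariates, and p-values were adjusted over all genes. Single genes were also compared by exact permutation over all splits into 5 and 5 arrays, and correlations with 100000 permutations. Alternatives were quantile normalization, median centring, leaving out the dimmest 40% of genes, the mean of all probe sets, eBayes with trend and robust, array weights, the Y-linked level as a covariate, a block for the replicate number, other thresholds and leaving out each array.

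The 43 genes and the other lists were chosen with earlier results of these data known. Values on every array are given for the 12 genes with the highest mean, the 6 with the smallest p and the 6 with the largest within-genotype SD, 18 in all; from other lists up to 4 genes with the smallest p are named, with further markers as examples. Motifs were searched in the RefSeq promoter table. Figures were drawn with matplotlib 3.10.9.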

Additional observations from a re-analysis of the deposited data

Results flagged for a closer look

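Of 38 groups of 5 arrays examined (18 chemokine and cytokine genes and Zbtb4 in 2 genotypes), 3 held an array whose gap to its nearest neighbour was above the critical share of 0.71 of the group's range, and chance gives about 1 group in 20. Cxcl16 read 5.87 on knock-out array 3, while the other arrays of that genotype gave 5.43 to 5.55. Cx3cl1 read 6.41 on knock-out array 2, against 5.91 to 5.99. Il1a also stood out on knock-out array 2, at 3.16 against 2.71 to 2.80. The causes were not tested.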

How the results depend on the processing

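No chemokine or cytokine gene was called under any of the 18 other settings of the fit, or at an adjusted p under 0.1, and 3 of 42 had an unadjusted p under 0.05. Over all genes 1326 had an unadjusted p under 0.05, and 0 to 1 genes were called with single arrays left out (1 without wild-type array 5). The replicate number as a block also gave 0 calls. With it, limma unadjusted p went from 0.054 to 0.018 for Cxcl14 and from 0.012 to 0.017 for Il6. Arrays of the same number deviated together with r = 0.17 for number 1 and -0.045 to 0.059 for the others. Of 5 knock-out arrays, 2 correlated best with the wild-type array of their own number. Y-linked signal, however, was bright on numbers 1 and 3 and dim on the others in both genotypes. The labels do not say whether the numbers mark pairs, and the main fit did not treat them as such. The median difference of the 42 genes, 0.0070, lay between -0.017 and 0.020 when each array was omitted in turn, and it was -0.068 over the 25 genes left after the dimmest 40% were dropped, by construction a different set. Of the 19 genes given array by array, 5 changed sign. Lif came to -0.0048 with array weights. With single arrays left out, Ccl12 ran from -0.056 to 0.70, Csf1 from -0.17 to 0.044, Cxcl12 from -0.082 to 0.10, Lif from -0.043 to 0.15 and Tslp from -0.27 to 0.026. The cause was not tested beyond naming the array. Signal over background is not known, so the dim genes, Il6 and Il1a among them, carry the least certain values.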
